A study of Mus musculus with 30 samples.

Results

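The phase II conjugation enzymes of the mouse small intestine were taken as the genes of the deposited count table whose symbols begin with Ugt1a, Ugt2a, Ugt2b, Sult1 to Sult6, the glutathione transferase prefixes Gsta, Gstm, Gstp, Gstt, Gstk, Gsto or Gstz followed by a digit, or Mgst1, Mgst2 and Mgst3. Symbols with a hyphen were left out. The rule used no measured value and gave 63 of the 54146 genes in the table. Epithelium of female C57BL/6 mice, aged 8 to 10 weeks, was profiled after 1 week on AIN93G, a semi-purified diet without dietary ligands of the aryl hydrocarbon receptor (AHR). The mice received by gavage either the vehicle or 10 µg of indolo[3,2-b]carbazole (ICZ), a potent AHR ligand, in corn oil, and tissue was taken 12 h later. EDTA released the cells of each mouse in 5 successive fractions, F1 to F5, whose RNA was sequenced with a kit that reads messenger RNAs from their 3' ends. All mice shared strain, sex and diet, and the title of every library used here gives the genotype as WT. Vehicle libraries numbered 15, from 3 mice with 5 fractions each, and ICZ libraries 14, because no sample is labelled as F1 of ICZ replicate 3.

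Conjugation makes foreign compounds, bile pigments, steroids and other small molecules more soluble by joining them to a polar group. UDP-glucuronosyltransferases (Ugt genes) attach glucuronic acid from UDP-glucuronic acid, sulfotransferases (Sult genes) attach sulfate from the donor PAPS, and glutathione transferases attach glutathione to reactive electrophiles. The soluble glutathione transferases form the alpha, mu, pi, theta, kappa, omega and zeta classes (Gsta, Gstm, Gstp, Gstt, Gstk, Gsto and Gstz), and the membrane-bound Mgst enzymes form a separate family. Enterocytes carry many of these enzymes, and some family members are known targets of AHR or of the stress-responsive factor NRF2.

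Gene reads came to between 4359673 and 7819837 per library, with a median of 6351137, and the members took between 0.163% and 0.371% of them. The villus enterocyte list stood for the labelled tissue: its 18 genes were all detected and together reached 44730 to 59760 CPM (reads scaled to one library total, with TMM factors) in F1 of vehicle mice. They reached 15820 to 33960 CPM in F5, where 16 of the 18 fell against F1, while 9 of 12 crypt base stem cell genes and 10 of 12 proliferation genes rose. In a bulk sample, fewer cells of a type and less RNA per cell cannot be told apart. Cyp1a1, the classical AHR target, checked the exposure: it stood at 75.9, 28.2 and 13.4 CPM in the 3 ICZ mice with F2 to F5 added, and at 0.13, 0.0333 and 0 CPM in the vehicle mice. Libraries that stood apart were F5 of vehicle replicate 3 and of ICZ replicate 3, where the 10 pancreas and liver genes summed to 1336 and 947 CPM, against at most 66.1 CPM elsewhere. F5 of ICZ replicate 1 was the library most taken up by few genes, with 54.3% of its gene reads in its top 10 (median over libraries 26.8%).

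The promoters of 4 members are shown. Each of these passed in at least 1 ICZ comparison that took equal replicate numbers as pairs, described further on. Gstm5 and Gstm7 are also neighbours that moved in opposite directions. Each window runs from 250 bases before to 50 bases after the RefSeq transcript start on GRCm38.p6, 5′ to 3′ on the strand of the gene. Gstm5 lies at chr3:107895604-107895903 on the plus strand, Gstm7 at chr3:107931768-107932067 on the minus strand, Mgst1 at chr6:138140277-138140576 on the plus strand and Sult1d1 at chr5:87568957-87569256 on the minus strand. Capitals mark GCGTG, the core of the AHR binding site, and TGACNNNGC, the core of the antioxidant response element bound by NRF2, on either strand.
Gstm5: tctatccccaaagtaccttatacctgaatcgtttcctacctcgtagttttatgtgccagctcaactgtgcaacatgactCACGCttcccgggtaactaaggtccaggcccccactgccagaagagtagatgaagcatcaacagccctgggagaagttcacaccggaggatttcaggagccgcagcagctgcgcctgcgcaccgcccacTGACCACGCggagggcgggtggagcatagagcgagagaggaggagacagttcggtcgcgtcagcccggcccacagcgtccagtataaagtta
Gstm7: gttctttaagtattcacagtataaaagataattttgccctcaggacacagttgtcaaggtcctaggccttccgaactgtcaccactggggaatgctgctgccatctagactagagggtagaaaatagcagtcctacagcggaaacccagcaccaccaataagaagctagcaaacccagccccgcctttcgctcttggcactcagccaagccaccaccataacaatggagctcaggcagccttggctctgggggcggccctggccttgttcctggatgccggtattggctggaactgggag
Mgst1: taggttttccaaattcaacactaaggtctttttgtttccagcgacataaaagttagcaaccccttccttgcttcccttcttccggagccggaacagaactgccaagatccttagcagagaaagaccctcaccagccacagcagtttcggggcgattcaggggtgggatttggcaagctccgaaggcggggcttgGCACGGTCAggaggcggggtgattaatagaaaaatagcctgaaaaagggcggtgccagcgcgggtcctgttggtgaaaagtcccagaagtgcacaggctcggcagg
Sult1d1: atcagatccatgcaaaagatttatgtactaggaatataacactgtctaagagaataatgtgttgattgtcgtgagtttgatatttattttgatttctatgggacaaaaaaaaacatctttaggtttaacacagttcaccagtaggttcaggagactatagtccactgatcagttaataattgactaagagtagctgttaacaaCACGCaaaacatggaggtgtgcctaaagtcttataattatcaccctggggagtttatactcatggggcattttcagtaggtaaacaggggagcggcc
The Gstm5 window held GCGTG 2 times on the reverse strand and TGACNNNGC once, and the second GCGTG lay inside the TGACNNNGC match. Sult1d1 held 1 GCGTG, Mgst1 held 1 TGACNNNGC, and neither set of letters was found in this window of Gstm7. RefSeq gives Gstm7 a second window, not shown, which held TGACNNNGC. Mgst1 also has a second window, not shown. The transcript start of its printed window lies 211 bases from the gene start in GENCODE M21. Over all 32851 RefSeq windows, 32.4% held GCGTG and 12.4% held TGACNNNGC. RefSeq windows were given for 56 of the 63 members, which had 68 windows in all, and 13 of these (19.1%) held GCGTG and 4 (5.88%) held TGACNNNGC. A match describes letters and is no evidence of binding.

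The families differed in how many of their genes were read at all. Over the 29 libraries the members collected 579017 reads, 34 members had at least 100 reads, 15 had between 1 and 99, and 14 had 0. A count of 0 over 186443428 gene reads allows a level of up to 0.0161 CPM, for counting error only. Sulfotransferases held 34.7% of the member reads, but 10 of their 20 genes had 0 reads. Ugt2 genes held 19.8%, Gstk, Gsto and Gstz genes together 13.8%, Gstm genes 10.6%, Mgst genes 7.77%, Gsta genes 7.34%, Gstt genes 5.75% and Ugt1a genes 0.238%. Both Gstp genes had 0 reads. These are shares of reads and not of molecules per length.

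Neighbouring genes of 1 cluster differed widely in their reads. On chromosome 5, Sult1b1, which sulfates phenols and thyroid hormones, had 122042 reads, and Sult1d1, a catecholamine sulfotransferase of the mouse, had 63515. Their neighbour Sult1e1, the estrogen sulfotransferase, had 0 reads, with no 50-base word of its 3' end found in another gene. Of the 8 Sult2a genes on chromosome 7, hydroxysteroid sulfotransferases best known from liver, 6 had 0 reads, Sult2a4 had 3 and Sult2a6 had 2. Of the 50-base words in their 3' ends, 57.6% in Sult2a2, 43.5% in Sult2a5, 28.3% in Sult2a4 and 13.1% in Sult2a1 also occur in other genes, so these low counts are uncertain. In the Ugt2 cluster on chromosome 5, Ugt2b34 had 81809 reads and Ugt2a3 24444, while Ugt2b37 had 8, Ugt2a1 had 1 and Ugt2a2 had 0. The last 500 exonic bases of Ugt2a1 and Ugt2a2 belong wholly to other genes on the same strand (100% in each), so a library of 3' ends cannot give the level of this pair.

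The low counts of the Ugt1a and Gstp genes have a limit that can be measured on the annotation. The 9 Ugt1a genes use separate first exons and shared last exons on chromosome 1, and in 8 of them the last 500 exonic bases belong wholly to other Ugt1a genes on the same strand. Reads that fall in several genes are counted as ambiguous, a class that held 3.61% to 5.10% of all counted reads, so a 3' end library cannot give the level of these genes. Ugt1a7c, whose annotated end reaches past the shared exons, had 630 reads, and Ugt1a6a, an enzyme of planar phenols and a known AHR target, had 492. For Gstp1 and Gstp2, 78.0% and 55.2% of the 50-base words within the 3' ends also occur in other genes. For Gsta1 the share was 90.0% and for Gsta2 62.1%, so the values of this pair are uncertain. Reads with low mapping quality made up 18.0% to 26.5% of counted reads and were not assigned to genes.

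**Figure D1:**
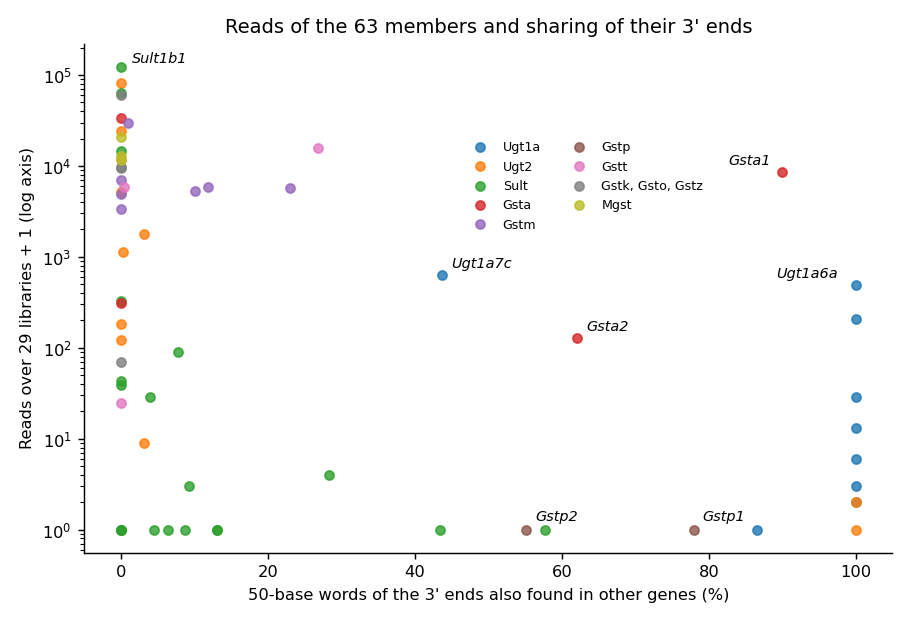
Reads of each of the 63 members over the 29 libraries plus 1, on a log axis, against the percentage of 50-base words in their 3' ends that also occur in other genes; each point is 1 gene, coloured by family. Most genes of many reads sit at the left, Gsta1 has 8609 reads at 90.0%, both Gstp genes have 0 reads, and genes of 0 reads are also found at 0%.

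Added together, the members stood lower in F5 than in F1, without overlap between mice. Their summed level was 3708 ± 157 CPM in F1 (SD, n = 3) and 2728 ± 536 CPM in F5, and in ICZ mice it was 3575 CPM in F1 (n = 2) and 2278 ± 172 CPM in F5 (n = 3). In vehicle mice, 30 members passed the low-count filter for F5 against F1 and 14 of them passed the test (edgeR quasi-likelihood test, Benjamini-Hochberg adjusted p under 0.05), 11 lower and 3 higher. Of all 13164 genes tested, 28.1% passed, 14.9% higher and 13.2% lower. The median log2 fold change was -0.17 over the 30 members and 0.02 over all genes tested.

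Glutathione transferases of the kappa, alpha and mu classes gave the largest falls. Gstk1, the kappa class enzyme of mitochondria and peroxisomes, stood at 67.2, 80.0 and 59.6 CPM in F1 of the 3 vehicle mice and at 34.7, 35.9 and 35.0 CPM in F5. The fractions did not overlap, and the log2 fold change was -0.96 ± 0.15 (SE, edgeR adjusted p = 0.000194). Gsta4, which conjugates the lipid peroxidation product 4-hydroxynonenal, stood at 206, 216 and 326 CPM in F1 and at 130, 172 and 81.4 CPM in F5. No F5 value reached the lowest F1 value, and the fall was smallest in vehicle replicate 2 (log2 fold change -0.93 ± 0.28, edgeR adjusted p = 0.0291). Gsta1 stood at 53.5, 51.9 and 63.7 CPM in F1 and at 37.6, 34.5 and 19.2 CPM in F5 (log2 fold change -0.92 ± 0.21, edgeR adjusted p = 0.00535), with the sharing of its 3' end given above.

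The mu class genes form 1 cluster on chromosome 3, between positions 107895821 and 108044894 of GRCm38, and did not move as a block. Read along the chromosome, Gstm5 was higher in F5, Gstm7, Gstm6 and Gstm3 were lower, Gstm2 was higher, Gstm1 did not pass the test, and Gstm4 was lower. Gstm6 stood at 48.1, 43.8 and 35.3 CPM in F1 and at 30.9, 24.4 and 17.3 CPM in F5, without overlap (log2 fold change -0.82 ± 0.15, edgeR adjusted p = 0.000845). Gstm5 stood at 19.9, 13.8 and 14.9 CPM in F1 and at 20.7, 29.3 and 24.2 CPM in F5. These groups did not overlap, but the gap in vehicle replicate 1 was under 1 CPM (log2 fold change 0.61 ± 0.18, edgeR adjusted p = 0.0157). Gstm2 stood at 21.9, 19.4 and 23.3 CPM in F1 and at 30.9, 28.7 and 34.5 CPM in F5, higher in each mouse (log2 fold change 0.55 ± 0.13, edgeR adjusted p = 0.0055). For Gstm1 the log2 fold change was -0.07 ± 0.18 (edgeR adjusted p = 0.799). Some words of the 3' ends of Gstm1, Gstm6 and Gstm2 occur in other genes, 23.0%, 11.8% and 10.1% of them.

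Gstm3 of the mu class differed between animals. It stood at 231 to 280 CPM in the 5 fractions of vehicle replicate 1. The range was 126 to 175 CPM in vehicle replicate 2, 104 to 142 CPM in vehicle replicate 3 and 94.7 to 164 CPM in the ICZ mice. Every fraction of vehicle replicate 1 was above every other library. Within mice, Gstm3 was lower in F5 than in F1 (log2 fold change -0.35 ± 0.11, edgeR adjusted p = 0.0227).

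The membrane-bound enzymes went the other way or stayed within their error. Mgst1, a trimeric transferase and peroxidase of the endoplasmic reticulum and mitochondria, stood at 43.3, 45.7 and 35.2 CPM in F1 and at 87.5, 71.2 and 56.5 CPM in F5. It was higher in F5 in each mouse (log2 fold change 0.79 ± 0.15, edgeR adjusted p = 0.000883). The vehicle values in F4 were 82.8, 97.5 and 68.8 CPM. Mgst2, which can make leukotriene C4, had 112, 108 and 84.8 CPM in F1 and 123, 102 and 86.8 CPM in F5, so that the groups overlapped (log2 fold change 0.03 ± 0.10, edgeR adjusted p = 0.845).

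Sulfotransferases fell in the 2 genes that passed. Sult1b1 stood at 827, 967 and 850 CPM in F1 and at 584, 605 and 377 CPM in F5, without overlap (log2 fold change -0.77 ± 0.16, edgeR adjusted p = 0.00224). Sult2b1, a cholesterol and hydroxysteroid sulfotransferase, stood at 103, 112 and 113 CPM in F1 and at 74.3, 69.6 and 47.8 CPM in F5, again without overlap (log2 fold change -0.79 ± 0.15, edgeR adjusted p = 0.000797). Sult1d1 overlapped between the fractions, with 328, 491 and 533 CPM in F1 and 335, 446 and 221 CPM in F5 (edgeR adjusted p = 0.148).

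Among the glucuronosyltransferases, 1 of 5 tested Ugt2 genes and 0 of 2 tested Ugt1a genes passed. Ugt2b34 stood at 494, 549 and 452 CPM in F1 and at 405, 452 and 260 CPM in F5, lower in each mouse (log2 fold change -0.45 ± 0.14, edgeR adjusted p = 0.0267). Ugt1a7c had 2.48, 2.38 and 2.80 CPM in F1 and 3.96, 1.47 and 3.68 CPM in F5, which overlapped. Gsto1, an omega class enzyme with reductase activity, had 375, 375 and 350 CPM in F1 and 265, 376 and 293 CPM in F5. Its groups overlapped, since vehicle replicate 2 had nearly equal values in both. In the theta class, Gstt1 fell (log2 fold change -0.60 ± 0.20, edgeR adjusted p = 0.0332), while Gstt3 had 101, 88.7 and 85.1 CPM in F1 and 62.8, 71.5 and 87.6 CPM in F5 (edgeR adjusted p = 0.0745).

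The number of calls was lower whichever vehicle mouse was left out, at 3 to 11 members, and such refits also have fewer mice. Without vehicle replicate 3 only Gstk1, Gstm6 and Mgst1 of the members passed, while without its F5 library alone, the one with pancreas reads, 11 members passed. Gstk1, Gstm6 and Mgst1 passed whichever vehicle mouse was left out. When F4 was set against F2, only Gstm6 passed. The share of all genes passing in these refits is not given here. The counts are therefore not read as a trait of the members. Immediate early genes also moved with the fractions: all 13 were higher in F5, with a median log2 fold change of 2.40, and their part in the member values was not tested.

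**Figure D2:**
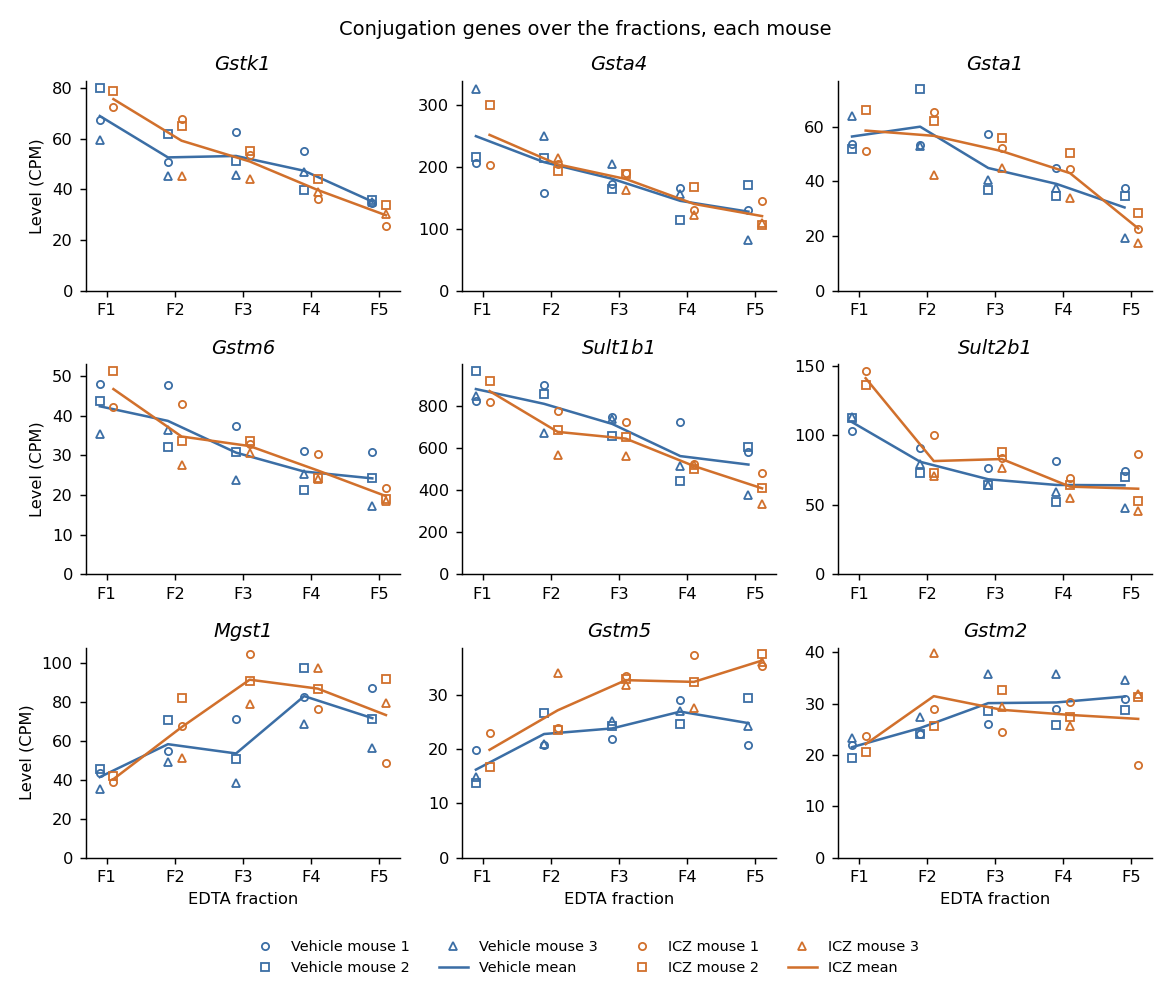
Level in CPM over fractions F1 to F5 for 9 members, with vehicle mice in blue and ICZ mice in orange; symbols are single mice (circle, square and triangle for replicates 1, 2 and 3) and lines join the group means. Gstk1, Gsta4, Gsta1, Gstm6, Sult1b1 and Sult2b1 decline from F1 to F5 in both treatments, while Mgst1 and Gstm5 are lowest in F1.

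A slope over the fraction number, fitted with the mouse as a block, used all fractions and could be set side by side in 2 sets of mice that share no sample. In vehicle mice, 14 of 30 tested members had a slope past the threshold, 11 negative and 3 positive, and 35.0% of all 13164 genes did. In ICZ mice, 14 of 31 had one, 13 negative and 1 positive, and 30.9% of all 12869 genes did. Negative slopes passed in 16.7% and 16.2% of all genes in the respective fits. Of the 30 members tested in both, 26 had the same sign and 11 passed in both. Over all 12665 genes tested in both fits, 81.7% had the same sign and 22.7% passed in both. The 10 that declined in both were Gsta1, Gsta4, Gstk1, Gstm4, Gstm6, Gstm7, Gstt1, Sult1b1, Sult2b1 and Ugt2b34. Gstm5 rose in both. Of all genes tested in both fits, 12% passed as lower in both and 10.7% as higher in both.

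The steepest decline in ICZ mice was that of Gstk1, at -0.31 ± 0.03 log2 units per fraction (edgeR adjusted p = 5.53e-06), against -0.21 ± 0.03 in vehicle mice (edgeR adjusted p = 0.000201). Gstm6 had -0.27 ± 0.04 in ICZ mice and -0.22 ± 0.03 in vehicle mice. For Sult1b1 the slopes were -0.24 ± 0.03 and -0.21 ± 0.04. Gstm5 rose by 0.18 ± 0.04 log2 units per fraction in ICZ mice (edgeR adjusted p = 0.00378) and by 0.14 ± 0.04 in vehicle mice (edgeR adjusted p = 0.0165). Mgst1 had 0.17 ± 0.08 in ICZ mice (edgeR adjusted p = 0.106) and 0.21 ± 0.04 in vehicle mice (edgeR adjusted p = 0.00143). Gstm2 passed in vehicle mice, at 0.13 ± 0.03, and had 0.01 ± 0.05 in ICZ mice. The difference of slope between the treatments passed in 0 of 32 tested members by edgeR and by DESeq2, with 2 at an unadjusted p under 0.05, Gsto1 and Gstm2 (edgeR adjusted p = 0.963 and 0.994), so these pairs of slopes are not shown to differ. Across all 13611 genes 0.0147% passed.

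**Figure D3:**
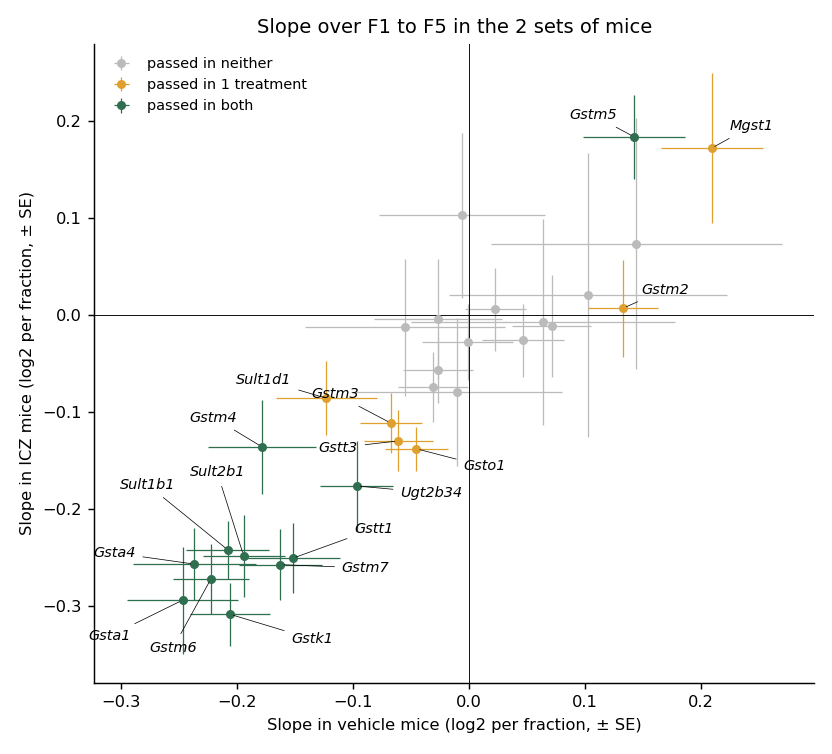
Slope of each of 30 members over fraction number in log2 units per fraction, in vehicle mice (horizontal axis) and ICZ mice (vertical axis), with bars of 1 standard error; colours give whether the slope passed in both treatments, in 1 or in neither. The 10 genes that passed in both as negative sit at the lower left, and Gstm5 is the gene that passed in both as positive.

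**Figure D4:**
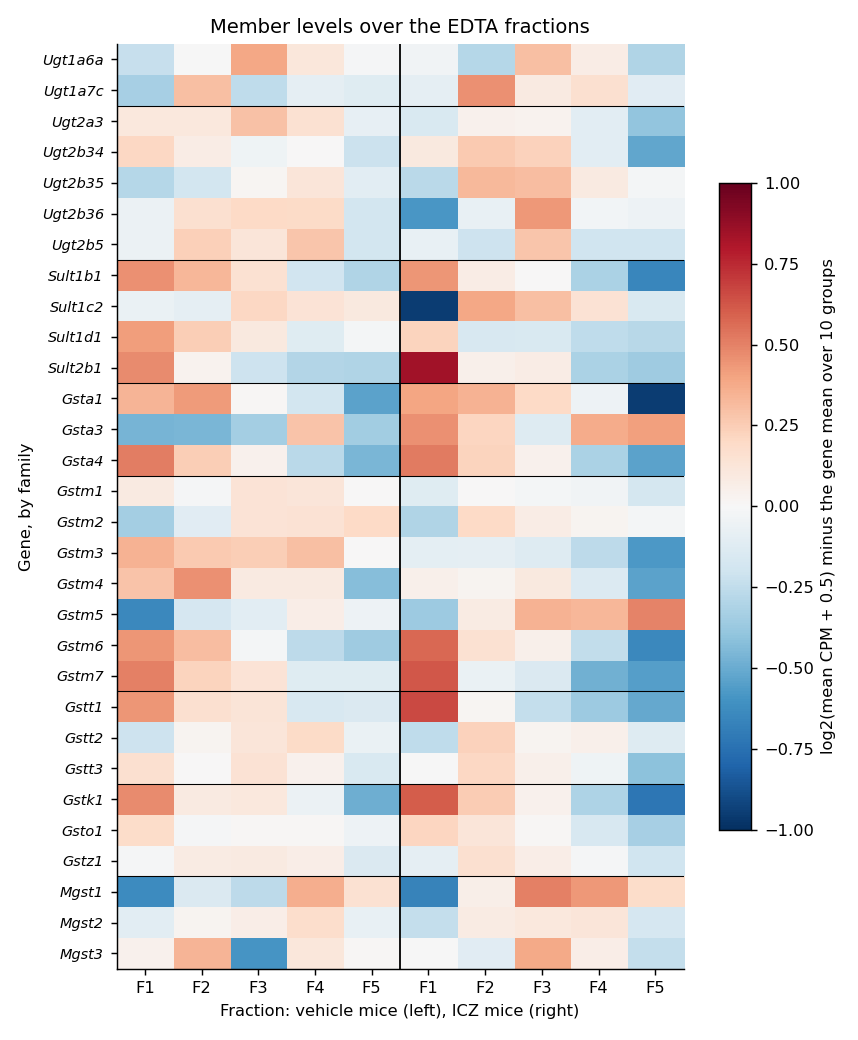
Mean level of 30 tested members in each fraction of vehicle mice (left) and ICZ mice (right), as log2 of mean CPM plus 0.5 minus the mean of that gene over the 10 groups, with rows grouped by family. Gsta1, Gsta4, Sult1b1, Sult2b1, Gstm6, Gstm7 and Gstk1 run from red in F1 to blue in F5, while Gstm5 and Mgst1 are blue in F1.

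The genes that supply the donors and move the conjugates were followed in the same comparison of F5 with F1. In the list for glutathione supply and mercapturate formation, 5 of 10 tested genes fell and 1 rose, with a median log2 fold change of -0.40. Of all genes tested in this comparison, 13.2% fell and 14.9% rose. The dipeptidase Dpep1, which splits the cysteinylglycine left from glutathione conjugates, fell by 1.11 ± 0.14 on the log2 scale. Gclm, the modifier subunit of the enzyme that starts glutathione synthesis, fell by 0.79 ± 0.12, and Acy3, which deacetylates mercapturates, fell by 0.93 ± 0.15. Of 10 genes for PAPS supply and sulfate handling, 2 fell: the sulfate transporter Slc26a2 (-0.63 ± 0.12) and Papss2, which makes PAPS (-1.10 ± 0.34).

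Of 5 genes for UDP-glucuronic acid supply, 1 fell, Ugp2, which makes UDP-glucose (-0.49 ± 0.12). Among 9 genes of conjugate export, 4 fell and 1 rose. Slc51b and Slc51a, the subunits of the basolateral organic solute transporter, had log2 fold changes of -0.78 ± 0.13 and -0.48 ± 0.11, and Abcc1, an exporter of glutathione and glucuronide conjugates, had 1.37 ± 0.31. Of 6 other phase II enzymes, Nat8, which acetylates cysteine conjugates, fell (-1.05 ± 0.17). Among 9 genes of related folds, Clic5 (-0.99 ± 0.15) and Ltc4s, the leukotriene C4 synthase (-1.0 ± 0.24), fell, and Eef1g, a translation elongation factor subunit (0.85 ± 0.23), and Gstcd rose. Of 15 xenobiotic regulators, Rxra (-0.47 ± 0.11) and Nr1i2, the pregnane X receptor (-0.38 ± 0.12), fell. In ICZ mice the slopes of Dpep1, Gclm, Acy3, Papss2, Slc26a2, Slc51a, Slc51b, Nat8, Rxra and Nr1i2 were also negative and past the threshold, and that of Abcc1 was positive and past it.

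For ICZ against vehicle, each mouse gave 1 value per gene, its reads in F2 to F5 together. Without a block for the replicate number, 0 of 35 tested members passed by edgeR or by DESeq2, 4 had an unadjusted p under 0.05, and 0 of 15497 genes passed by edgeR (0.0%), with 886 at an unadjusted p under 0.05. DESeq2 called 13 genes over the whole table. The labels state no pairing of vehicle with ICZ mice. The replicate numbers were taken as pairs from these same counts, by the check given with the processing. With the replicate as a block 231 genes (1.49%) passed, among them 3 members: Gstm5 higher, Gstm7 and Sult1d1 lower. These calls hold only if the inferred pairs are real. Of all genes, 0.749% passed as higher and 0.742% as lower. The median log2 fold change of the members was -0.02 in both fits, against 0.01 over all genes.

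Gstm5 stood at 23.5, 26.5 and 24.8 CPM in vehicle replicates 1, 2 and 3 and at 32.9, 32.5 and 33.6 CPM in the ICZ mice. Every ICZ mouse was above every vehicle mouse (log2 fold change 0.40 ± 0.09, edgeR adjusted p = 0.846; with the block 0.40 ± 0.08, edgeR adjusted p = 0.0207). Its neighbour Gstm7 moved the other way, with 39.4, 40.1 and 36.7 CPM in vehicle mice and 31.2, 32.4 and 29.5 CPM in ICZ mice. These groups did not overlap either (log2 fold change -0.32 ± 0.09, edgeR adjusted p = 0.846; with the block -0.32 ± 0.07, edgeR adjusted p = 0.0433). Sult1d1 stood at 358, 384 and 328 CPM in vehicle mice and at 327, 294 and 261 CPM in ICZ mice. The highest ICZ mouse lay just under the lowest vehicle mouse, and each pair fell (log2 fold change -0.28 ± 0.11, edgeR adjusted p = 0.846; with the block -0.28 ± 0.07, edgeR adjusted p = 0.0437).

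The block calls were few, and the members called changed with the mice and fractions used. Fits without a pair also have fewer mice. Leaving out replicate pair 2 or pair 3 left 0 members called, leaving out pair 1 left Mgst1 and Sult1d1, and adding F2 to F4 only, which drops the F5 libraries that stood apart, left Mgst1. No share of all genes is given for these fits, so such counts are not read as a trait of the members. In these 4 fits the log2 fold change lay between 0.34 and 0.45 for Gstm5 and between -0.34 and -0.31 for Gstm7.

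Mgst1, at 75.4, 73.8 and 54.6 CPM in vehicle mice and 79.6, 89.8 and 76.8 CPM in ICZ mice, did not overlap between the groups and was higher in each pair (log2 fold change 0.27 ± 0.13; with the block 0.28 ± 0.08, edgeR adjusted p = 0.0903). Gstt1, a theta class enzyme that acts on small halogenated compounds, had 66.3, 65.4 and 60.0 CPM in vehicle mice and 60.0, 50.4 and 48.7 CPM in ICZ mice. The groups overlapped only at their edges (log2 fold change -0.27 ± 0.10; with the block -0.27 ± 0.07, edgeR adjusted p = 0.0718). Ugt2b35 had 24.7, 30.5 and 24.4 CPM in vehicle mice and 29.3, 32.8 and 32.0 CPM in ICZ mice, which overlapped. Of the 35 tested members, 2 lay without overlap higher and 3 lower in ICZ mice, against 5.65% higher and 5.86% lower of all genes tested (11.5% in all), and the exact two-sided permutation test gives p = 0.1 for each, the smallest that 3 mice against 3 allow. The fifth is Gsta2, at most 1.13 CPM in these sums and chosen for mention after its values were seen.

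**Figure D5:**
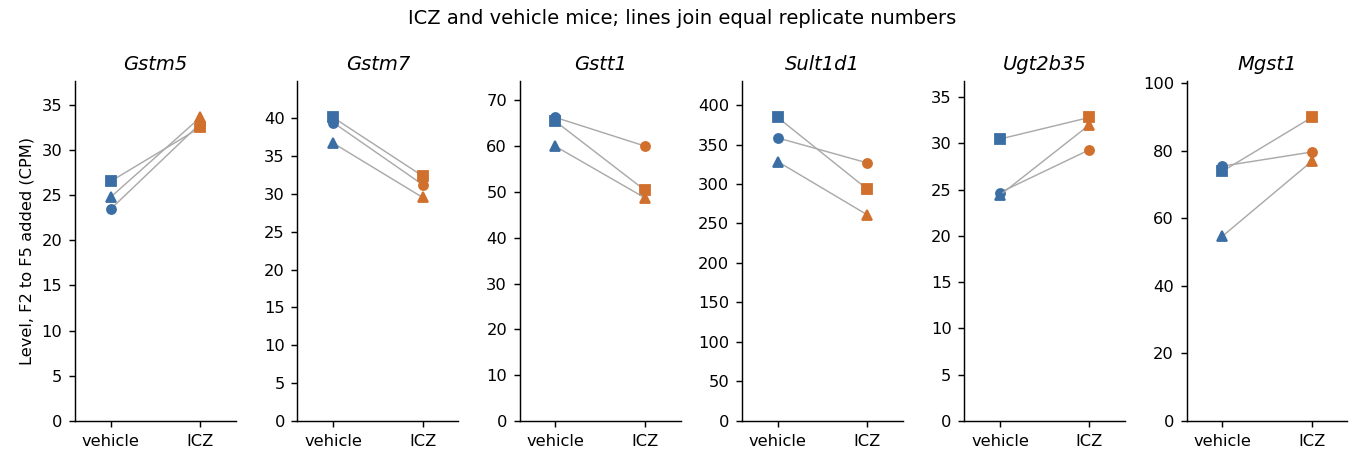
Level in CPM with F2 to F5 added, for 6 members in 3 vehicle and 3 ICZ mice; symbols give the replicate (circle 1, square 2, triangle 3) and grey lines join equal replicate numbers. Gstm5, Ugt2b35 and Mgst1 are higher in ICZ mice in all 3 pairs, and Gstm7, Gstt1 and Sult1d1 are lower in all 3.

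The summed levels of some marker lists for other cells differed between the same mice. The antigen presenting and B cell list summed to 204 to 220 CPM in ICZ mice and 293 to 833 CPM in vehicle mice, without overlap, and the stroma and muscle list to 50.1 to 71.3 against 16.7 to 19.8 CPM. The 12 intraepithelial T cell genes summed to 239 to 402 CPM against 355 to 565 CPM. All genes of these 3 lists had reads. The enterocyte list overlapped, at 28320 to 40860 CPM against 25600 to 44480 CPM. A sum can rest on few of its genes, and genes per direction are not given here, so a difference in cells is not shown. The part of these cells in the member values was not tested.

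Within single fractions, without a block, 0 members passed in any fraction by edgeR or by DESeq2. The members tested were 29 in F1, 31 in F2, 30 in F3, 30 in F4 and 30 in F5, and those at an unadjusted p under 0.05 were 1, 4, 8, 0 and 1. Of all genes, 0.0324% passed in F1, 0.0165% in F2, 0.00815% in F3, 0.0% in F4 and 0.0% in F5, with 542, 1455, 1122, 349 and 342 at an unadjusted p under 0.05. In F1, Sult2b1 had 103, 112 and 113 CPM in vehicle mice and 146 and 136 CPM in the 2 ICZ mice (log2 fold change 0.37 ± 0.12, edgeR adjusted p = 0.955). In F2, Sult1d1 had 371, 421 and 412 CPM in vehicle mice and 339, 304 and 265 CPM in ICZ mice, without overlap (log2 fold change -0.44 ± 0.12, edgeR adjusted p = 0.209). With the block it passed in F2 (edgeR adjusted p = 0.0403), as did 1.82% of all genes. Ugt2b35 had 23.5, 26.8 and 19.6 CPM in vehicle mice and 30.4, 35.9 and 34.1 CPM in ICZ mice of F2 (log2 fold change 0.50 ± 0.16, edgeR adjusted p = 0.264). Ugt2a3, in human known to conjugate bile acids, had 142, 154 and 118 CPM in vehicle mice and 107 and 124 CPM in ICZ mice of F1, which overlapped (log2 fold change -0.25 ± 0.14).

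In F3, Mgst1 had 71.4, 50.7 and 38.5 CPM in vehicle mice and 104, 90.9 and 79.1 CPM in ICZ mice. Every ICZ mouse was higher (log2 fold change 0.76 ± 0.20, edgeR adjusted p = 0.388), and with the block Mgst1 passed (0.79 ± 0.12, edgeR adjusted p = 0.0322), as did 0.187% of all genes. In F3 the same-numbered pairs correlated at 0.258, 0.00986 and 0.194, so the check did not bear out the pair of replicate 2 there. Mgst3, named after its values were seen, had 62, 36.3 and 21.5 CPM in vehicle mice and 89.1, 78.1 and 68.8 CPM in ICZ mice of that fraction (with the block 1.06 ± 0.19, edgeR adjusted p = 0.0662). In F2 the same gene had 83.3, 89.8 and 55.7 CPM against 79.1, 52.5 and 35.2 CPM, so that its direction was opposite in neighbouring fractions. In F4, Gstm3 had 280, 146 and 142 CPM in vehicle mice and 118, 134 and 131 CPM in ICZ mice, a gap that came mainly from vehicle replicate 1. In F5, Gstm5 had 20.7, 29.3 and 24.2 CPM in vehicle mice and 35.4, 37.5 and 36.0 CPM in ICZ mice (log2 fold change 0.57 ± 0.19, edgeR adjusted p = 1). With the block, 0 members passed in F1, F4 and F5, where 0.365%, 0.0413% and 0.0653% of all genes did.

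The median log2 fold change of the members was -0.01 in F1, -0.03 in F2, -0.01 in F3, -0.10 in F4 and -0.20 in F5, where 24 of 30 were negative. Over all genes it lay between -0.01 and 0.01 in these fractions. The test of a different ICZ effect between fractions passed in 0 of 32 members by edgeR and by DESeq2, with Mgst1 and Mgst3 at an unadjusted p under 0.05 (edgeR adjusted p = 0.903 and 0.927), and in 0.00711% of all genes.

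Of the genes around the enzymes, the blocked fit of the sums called 3 of the 7 AHR targets, Cyp1a1, Cyp1a2 and Nqo1. It also called 1 of the 16 xenobiotic regulators, Cdx2, a transcription factor of intestinal identity. Of all genes, 1.49% passed in this fit, which rests on the inferred pairs, and 0.0% passed by edgeR without the block. The summed AHR target list overlapped between groups, at 87.35 to 165.9 CPM in ICZ mice and 72.19 to 92.09 CPM in vehicle mice. Nqo1, a quinone reductase, had a log2 fold change of 0.57 ± 0.10 (edgeR adjusted p = 0.00945) and Cdx2 0.39 ± 0.07 (edgeR adjusted p = 0.0147). In the lists for glutathione, PAPS and UDP-glucuronic acid supply, conjugate export, other phase II enzymes and related folds, 0 genes passed in either fit. The smallest p there belonged to Anpep and Gclc in the glutathione list, with 0.35 ± 0.10 (edgeR adjusted p = 0.119) and 0.26 ± 0.08 (edgeR adjusted p = 0.122) in the blocked fit.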

How the data were processed

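The authors deposited 1 table of whole-number read counts per gene, not normalized. FastQC 0.11.2, BWA 0.7.17-r1188, SAMtools 1.10 and HTSeq 0.11.2 with GRCm38.p6 (mm10) are named in the submitters' processing notes. Not given in the sources used here are the annotation release, the strand setting and any molecular identifiers. Reads of overlapping antisense genes therefore cannot be told apart, and intervals hold for counting error only. BWA leaves spliced reads unsplit. Counts were tested with edgeR 4.0.16 in R 4.3.3 (filterByExpr, TMM, robust quasi-likelihood F test, Benjamini-Hochberg over all tested genes, threshold 0.05). Fraction fits had the mouse as a block, and ICZ fits no block. SE was derived from the log2 fold change and F. DESeq2 1.42.0, limma 3.58.1 voom, other scaling, no filter, added copies, a replicate block and left-out mice were alternatives. Deviations of same-numbered vehicle and ICZ sums correlated at 0.381, 0.247 and 0.472, so the numbers were taken as pairs. The block is then tested on these same counts, so the check cannot show that the pairs are real. For replicate 2 the correlation was 0.00986 in F3, 0.0133 in F4 and -0.0951 in F5. In single fractions every pair passed 0.1 only in F2. The labels call the samples biological replicates.

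Positions and 3' end sharing (the last 500 exonic bases, 50-base words) are from GENCODE M21, promoters from RefSeq. Per-sample values were named for the highest member of each family by CPM, up to 5 per direction in F5 against F1 of at least 5 CPM, 6 of smallest p under ICZ, up to 3 per fraction and up to 3 genes per pathway list. The members and lists were chosen with earlier results of these data known. Some of the main fits were run on simulated counts with a fixed spread for all genes and no mouse effects. Fits with a replicate block were not among them.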

Additional observations from a re-analysis of the deposited data

Results flagged for a closer look

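A sample titled Undetermined, whose labels give neither treatment nor fraction, entered no comparison. In it Gstm5 stood at 139 CPM of gene reads (1043 reads), above the 13.0 to 30.9 CPM of the 15 vehicle libraries on the same scale. Gstm7, its neighbour, stood at 40.5 CPM there, inside the vehicle range of 29 to 53.8 CPM. With TMM factors, Gstm5 reached at most 37.5 CPM in the 29 libraries used, those of ICZ mice included.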

How the results depend on the processing

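Over 11 comparisons and their alternatives, 123 counts of called members stayed within 1.5 times, 9 rose and 2 fell. A count of 0 beside a main count of 0 was scored as unchanged. The main count was 0 in every ICZ against vehicle comparison and in both tests of a difference. Such counts are among the 123 and say nothing about stability. For left-out mice and pairs, no share over all genes is given beside the counts. F5 against F1 gave 14 members, 3 to 11 without 1 vehicle mouse and 1 for F4 against F2. The vehicle slope gave 10 to 15 without 1 mouse, and so did the ICZ slope. For ICZ with F2 to F5 added, the replicate block gave 3, 0 to 2 with 1 pair left out and 1 with F2 to F4 added, and 0 without a block whichever mouse was left out. The block gave 1 in F2 (Sult1d1) and 1 in F3 (Mgst1), and changed no other ICZ call. Without a filter on low counts 1 passed in F3 (Mgst1), 1 in F4 (Gstm3) and 2 in the difference between fractions (Mgst1 and Mgst3). In F3 the count was 0 to 3 without 1 mouse, 3 (Mgst1, Mgst3 and Ugt2b34) without vehicle replicate 1. The slope of Gstm2 in ICZ mice ran from -0.0714 without ICZ replicate 2 (edgeR adjusted p = 0.479) to 0.0501 without the F5 library of ICZ replicate 1. The cause was not tested. The alternatives without single F5 libraries of vehicle replicate 3 and ICZ replicate 3, and the block with left-out pairs or with F2 to F4, were chosen after seeing the data. F1 rests on 2 ICZ mice, and members under about 1 CPM have few reads per library, so differences in them were not detectable at this depth.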

Other observations

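Ugt2b38, chosen after its values were seen, stood at 15.5 CPM in F5 of vehicle replicate 2 and at 3.14 CPM in F5 of ICZ replicate 1. In the other 27 libraries it was at most 2.06 CPM. The pancreas and liver genes summed to 19.5 and 48.8 CPM in those 2 libraries.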
